A study of Homo sapiens with 6 samples.

Results

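The oxidative phosphorylation (OXPHOS) subunits are the proteins that build respiratory complexes I to V of the inner mitochondrial membrane. They were taken here as the protein_coding genes whose GENCODE release 44 name starts with MT-ND, MT-CO, MT-CYB or MT-ATP, with NDUFA, NDUFB, NDUFC, NDUFS or NDUFV and a digit, with UQCR, ATP5 or COX4 to COX8, or is SDHA, SDHB, SDHC, SDHD or CYC1. This name rule found 103 genes among 62252 annotated genes, of which 19991 are protein_coding. The mitochondrial genome encodes 13 of them and the nucleus encodes the other 90. The rule also takes in low-level paralogs, 2 readthrough genes that join a subunit to its neighbour (NDUFC2-KCTD14 and ATP5MF-PTCD1) and the inhibitor ATP5IF1, and it leaves out NDUFAB1 and cytochrome c.

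RNA was sequenced from K562 cells, a human erythroleukemia line, that had been transduced with a lentiviral pLKO.1 vector carrying a short hairpin RNA (shRNA). The shCtrl cells carried a hairpin against luciferase and the shPCBP1 cells carried a hairpin against PCBP1, and both had been exposed to 8 µg/ml polybrene and selected in 3 µg/ml puromycin. Each group held 3 poly-A selected libraries and each target had a single hairpin, so an effect of PCBP1 loss and an effect of that hairpin alone cannot be told apart. PCBP1 is an RNA-binding protein that also carries iron in the cytosol, and the question addressed here was how the mRNAs of the iron-rich respiratory chain stood after its knockdown (KD).

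In the respiratory chain, complex I takes electrons from NADH and complex II takes them from succinate. Complex III passes them through cytochrome c to complex IV, which reduces oxygen, and complex V uses the resulting proton gradient to make ATP. Electrons travel along iron-sulfur clusters and hemes held by a small number of core subunits, whereas most of the other subunits, called accessory, hold the complexes together. Complexes I, III, IV and V are assembled from products of both genomes, and complex II is encoded in the nucleus alone. Erythroid cells use much iron for heme, whose synthesis begins and ends inside mitochondria.

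The targeted gene was examined first. PCBP1 had 40566, 38409 and 37799 normalized counts in shCtrl and 6625, 7277 and 7222 in shPCBP1, which is 18.1% of the shCtrl mean. Libraries held between 67066747 and 140522444 estimated counts, the 2 deepest being shCtrl libraries, and replicates differed by more than counting noise. Of 10 K562 markers, all were present in every library, from 36.6 TPM for TAL1 upward (TPM is the share of all transcripts, scaled for transcript length to one fixed total). Among markers of other lineages, GP9 was listed at 0 TPM, PF4, CD3E and ALB stayed at or under 0.14 TPM, and PECAM1 and COL1A1 ranged from 0.714 to 6.61 TPM. ITGA2B was at 13.1 to 17.04 TPM in shCtrl and 3.29 to 5.09 TPM in shPCBP1, and EPCAM was at 26.7 to 38.1 TPM over the 6 libraries. The part of these differences in the results was not tested.

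Of the 103 members, 96 received an adjusted p from the DESeq2 fit across all genes. Another 4 had too few counts for an adjusted p (COX7A1, COX7B2, ATP5MGL and UQCRHL), and 3 were under the minimum summed count of 10 (COX4I2, COX6A2 and COX8C). At an adjusted p under 0.05, 27 of the 96 had changed (28.1%), against 31.2% of all 17095 genes tested. The direction was uneven. Only 5 members were higher in shPCBP1 (5.21%, against 17.7% of all genes) and 22 were lower (22.9%, against 13.5% of all genes). The changes were small: none of the members passed the study's rule, which also asks for an absolute log2 fold change over 1, against 1.37% of all genes. Normalized counts of the 2 groups did not overlap for 36 of the 96 members, against 44.2% of all genes. Of the 27 calls, 15 were kept in all 16 alternative settings tried, 13 of them lower and 2 higher. The direction of the count rested in part on 1 library: without shPCBP1 replicate 3, 8 members were higher and 14 lower. In that setting 31.6% of all genes had changed, and their split by direction is not given here.

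**Figure D1:**
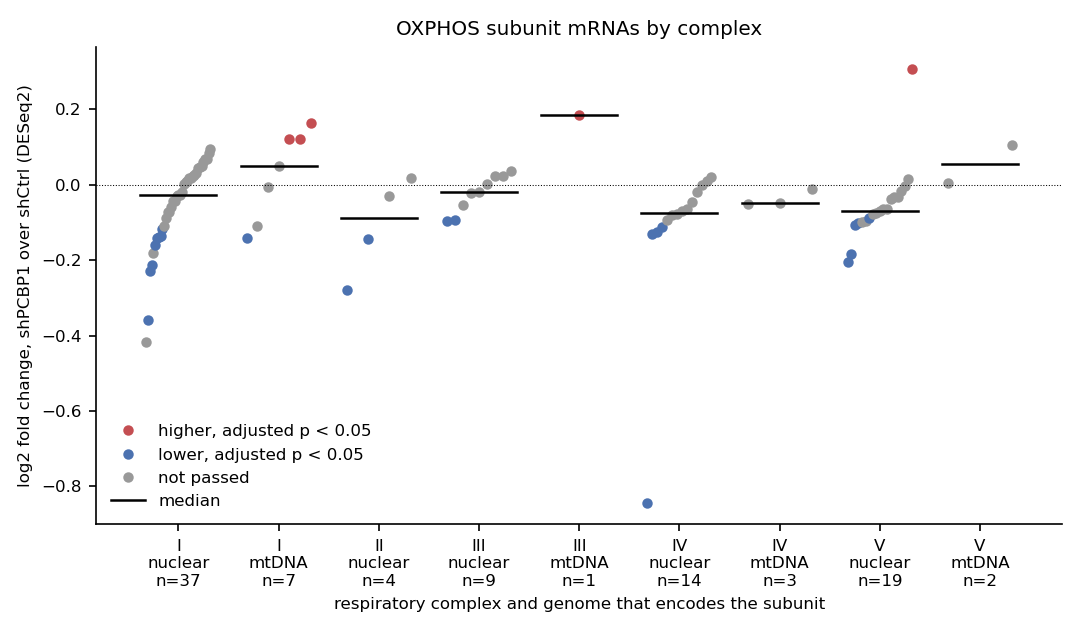
DESeq2 log2 fold change (shPCBP1 over shCtrl) of each of the 96 OXPHOS members with an adjusted p, by complex and by the genome that encodes it (mtDNA is the mitochondrial genome); red points were higher and blue points lower at an adjusted p under 0.05, and bars are medians. Blue points lie among the nuclear members of every complex, and 4 of the 5 red points are mitochondrially encoded.

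Levels were then summed for each genome. Summed over the 13 mitochondrially encoded mRNAs, the level was 148959, 149856 and 150151 TPM in shCtrl and 153571, 150108 and 149873 TPM in shPCBP1, so the groups overlapped. Summed over the 90 nuclear members, it was 29461, 29559 and 29193 TPM in shCtrl and 27440, 27913 and 27683 TPM in shPCBP1, so every shPCBP1 library was below every shCtrl library, with a log2 ratio of the means of -0.087. The ratio of mitochondrial to nuclear summed TPM was therefore 5.06, 5.07 and 5.14 in shCtrl and 5.60, 5.38 and 5.41 in shPCBP1. These sums are descriptions with no test. Gene by gene, the median log2 ratio of mean TPM was -0.074 over the nuclear members tested and -0.018 over all genes tested. Summed normalized counts, which give long and abundant transcripts more weight, put the nuclear log2 ratio at -0.060. In bulk RNA a smaller share of a kind of cell and less RNA in each cell cannot be told apart.

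In summed TPM the nuclear members were lower in each complex. Their summed TPM did not overlap between the groups in any of complexes I to V, and the log2 ratio was -0.071 for complex I, -0.14 for complex II, -0.058 for complex III, -0.10 for complex IV and -0.10 for complex V. The median DESeq2 log2 fold change of the 83 nuclear members tested was -0.046, with 58 below 0 and 25 above, beside a median of 0.0019 over all genes tested. For the 13 mitochondrial members the median was 0.0043, with 6 below 0 and 7 above. By complex, the nuclear median was -0.028 for complex I (21 below 0 and 16 above) and -0.019 for complex III (5 below and 4 above). It was -0.087 for complex II, -0.074 for complex IV and -0.070 for complex V. In complex III, the mean of UQCRH was 1616 TPM in shCtrl and 1519 TPM in shPCBP1. The mean sum over the nuclear members of that complex was 3261 and 3134 TPM. Nuclear OXPHOS transcripts are short (TPM-weighted median length of 743 bases, against 2412 bases for all protein_coding genes tested), and over 12819 protein_coding genes log2 fold change and length were weakly related (Spearman rho 0.135, a description across genes, which are not replicates). Among the nuclear members themselves rho was -0.023. With the trend over all genes subtracted the nuclear median was -0.016, with 45 of 83 below 0, beside 0.012 over all genes. The nuclear median also came to -0.029 without shCtrl replicate 1, beside 0.014 over all genes.

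**Figure D2:**
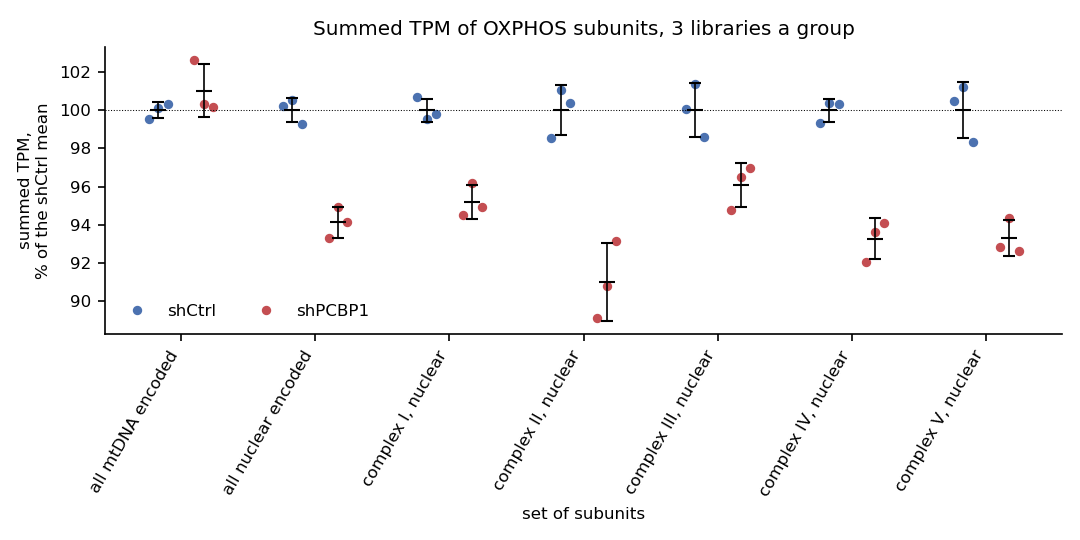
Summed TPM of all mitochondrially encoded members, all nuclear members and the nuclear members of each complex, as a percentage of the shCtrl mean, with 1 point for each library and the mean and SD of each group of 3 in black. The shPCBP1 points lie below the shCtrl points in every nuclear set, and the groups overlap for the mitochondrially encoded set.

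The mitochondrially encoded mRNAs made up 5.68%, 5.61% and 5.67% of all estimated counts in shCtrl and 5.57%, 5.49% and 5.57% in shPCBP1. In this share every shPCBP1 library was below every shCtrl library, unlike in summed TPM. Summed normalized counts of the 13 put the log2 ratio at 0.0084. These mRNAs are cut from long precursors that cover almost the whole circular genome and then receive short poly-A tails. Several end without a full stop codon, which the tail completes. The annotated 3' ends of the 5 that changed are shown because the libraries were selected by poly-A tail. Where each tail begins was not measured, so these ends need not be tail sites. They were read from the GENCODE release 44 transcripts (hg38, chromosome M), 24 bases each from 5' to 3', and the capitals mark the encoded stop codon or the part of it that is encoded:
MT-CYB: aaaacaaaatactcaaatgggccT
MT-ND2: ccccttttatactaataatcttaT
MT-ND3: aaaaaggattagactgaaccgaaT
MT-ND4L: aacctaaacctactccaatgcTAA
MT-ND5: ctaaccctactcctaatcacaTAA
Of the 6 mRNAs whose annotated end holds a partial stop codon (MT-ND1, MT-ND2, MT-CO3, MT-ND3, MT-ND4 and MT-CYB), 3 were higher and 0 lower. Of the 7 with a complete stop codon, 1 was higher and 1 lower, beside 17.7% higher and 13.5% lower among all genes. The 7 include MT-ND4L and MT-ATP8, whose annotated ends lie inside the RNAs they share with MT-ND4 and MT-ATP6. With so few mRNAs these counts are a description only.

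MT-CYB (chromosome M, 14747 to 15887, plus strand), the heme-bearing cytochrome b of complex III and the only subunit of that complex from this genome, had the largest rise among them. Its normalized counts were 260067, 246944 and 274534 in shCtrl and 311205, 288944 and 287745 in shPCBP1. The groups did not overlap, with a log2 fold change of 0.18 (standard error 0.0417, DESeq2 adjusted p = 8.97e-05), and the call was kept in all 16 settings. MT-ND2 (4470 to 5511), a proton-pumping membrane subunit of complex I, had 555955, 528175 and 527288 normalized counts in shCtrl and 598162, 568736 and 587127 in shPCBP1. It rose by a log2 fold change of 0.12 (standard error 0.033, DESeq2 adjusted p = 0.00131), again without overlap and in all 16 settings.

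MT-ND4L (10470 to 10766), a small membrane subunit of complex I, had 63544, 64821 and 58789 normalized counts in shCtrl and 71247, 68954 and 69588 in shPCBP1. Its log2 fold change was 0.16 (standard error 0.0385, DESeq2 adjusted p = 0.000151). This gene shares 7 bases and one mature RNA with MT-ND4, whose counts did not pass the test (log2 fold change -0.0064, 95% interval -0.077 to 0.065). Summed over the pair, the log2 ratio of the means was 0.0054 and the groups overlapped, while the share of the pair's counts assigned to MT-ND4L was 6.25% to 6.90% in shCtrl and 7.17% to 7.48% in shPCBP1. Transcript length offsets took the MT-ND4L call away (log2 fold change 0.12, adjusted p = 0.0788). MT-ND3 (10059 to 10404), another membrane subunit of complex I, had 77589, 77135 and 69336 normalized counts in shCtrl and 80479, 83617 and 79633 in shPCBP1, with a log2 fold change of 0.12 (standard error 0.0423, DESeq2 adjusted p = 0.0163). Its call was lost without shCtrl replicate 3 or shPCBP1 replicate 2 (log2 fold change 0.072 to 0.10, adjusted p up to 0.16), and with edgeR, length offsets or protein_coding transcripts only (adjusted p up to 0.113). On the TPM scale the groups overlapped for MT-ND4L (14150 to 16248 in shCtrl, 15824 to 16364 in shPCBP1). The TPM of MT-ND3 overlapped too (11282 to 12053 in shCtrl, 11765 to 12320 in shPCBP1).

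MT-ND5 (12337 to 14148), the longest mitochondrial mRNA and also a complex I membrane subunit, moved the other way. Its normalized counts were 147341, 173223 and 158644 in shCtrl and 142184, 155274 and 136812 in shPCBP1. The groups overlapped, and the log2 fold change of -0.14 (standard error 0.0522, DESeq2 adjusted p = 0.0243) was kept in only 5 of 16 settings. It was lost without shCtrl replicate 2 or 3 or shPCBP1 replicate 1 or 3, with log2 fold changes of -0.15 to -0.079 and adjusted p up to 0.47. MT-ND6, the single mitochondrial subunit on the minus strand, had a log2 fold change of -0.11 (95% interval -0.21 to -0.0081), which did not pass after adjustment (DESeq2 adjusted p = 0.0942). Whether reads were assigned by strand was not given in the sources used here, so its reads and those of the opposite strand cannot be told apart.

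The remaining mitochondrial mRNAs did not pass the test. The 3 mitochondrially encoded subunits of complex IV had log2 fold changes of -0.048 (MT-CO1, which holds its hemes), -0.012 (MT-CO2) and -0.052 (MT-CO3). Each 95% interval lay within -0.12 and 0.054. MT-ATP6, the proton channel subunit of complex V, was at 0.0043 (95% interval -0.061 to 0.070). MT-ATP8, which shares one RNA and 46 bases with MT-ATP6, was at 0.11 with a wide interval (-0.079 to 0.29). On the TPM scale MT-ATP8 stood at 33631 to 38733, the highest level of any member, and MT-ATP6 at 15718 to 16352, although both are read from the same RNA. MT-ATP8 is annotated at 207 bases. MT-ND1 was at 0.050 (95% interval -0.050 to 0.15).

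The mitochondrial ribosomal RNAs were lower in shPCBP1, in contrast to the median of the mRNAs. MT-RNR2 had 726991, 714467 and 686084 normalized counts in shCtrl and 590835, 576775 and 584470 in shPCBP1, with a log2 fold change of -0.28 (standard error 0.031). MT-RNR1 had a log2 fold change of -0.25 (standard error 0.0407). Both were outside the list of members, were chosen after their values were seen and are captured only in part by poly-A selection. Nuclear pseudogene copies of the mitochondrial genes (404 annotated) held reads equal to between 0.621% and 0.823% of the counts of the 13 genes.

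**Figure D3:**
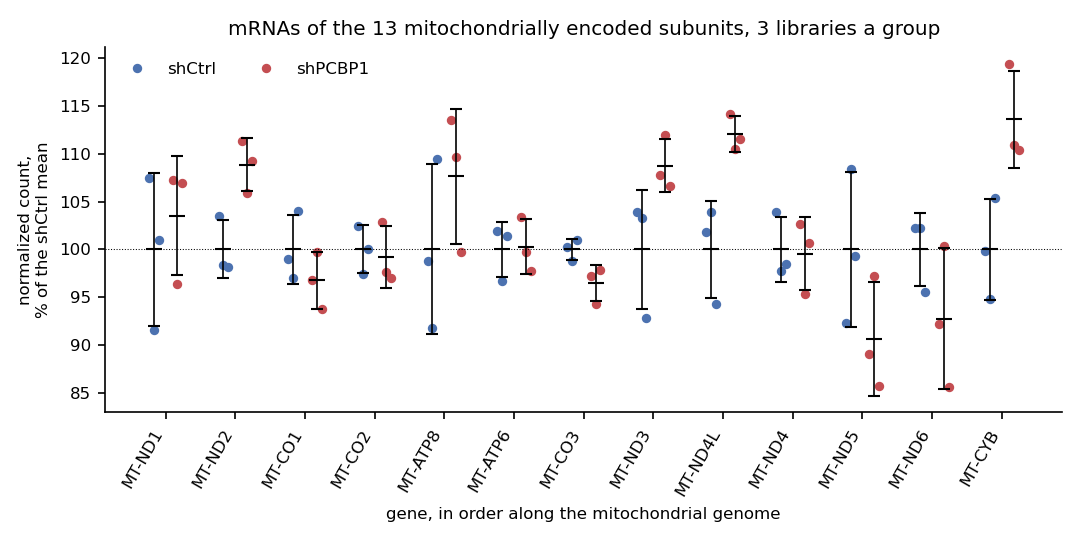
Normalized counts of the 13 mitochondrially encoded mRNAs as a percentage of each gene's shCtrl mean, in genome order, with 1 point for each library and the mean and SD of each group of 3 in black. MT-ND2, MT-ND3, MT-ND4L and MT-CYB lie above their shCtrl points without overlap, those of MT-CO3, which did not pass the test, lie below without overlap, and the points of MT-ND5 and MT-ND6 overlap between the groups.

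Complex I is the largest of the complexes, and its nuclear members number 37 here. Of these, 8 fell (21.6%, against 13.5% of all genes) and 0 rose (against 17.7%). The 7 nuclear core subunits, which carry the flavin and the iron-sulfur clusters or surround them, included 3 of the falls (42.9%, beside 13.5% of all genes), and the 29 accessory subunits included 5 (17.2%). NDUFS7 (chromosome 19, 1383527 to 1395589, plus strand) holds cluster N2, the last cluster before ubiquinone. It had 11795, 11819 and 11309 normalized counts in shCtrl and 9135, 8796 and 9311 in shPCBP1, and 224, 229 and 215 TPM against 153, 151 and 157 TPM. The groups were far apart, with a log2 fold change of -0.36 (standard error 0.0418, DESeq2 adjusted p = 6.15e-16). Its mean normalized count fell by 22.0%.

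NDUFS7 transcripts annotated as protein_coding summed to 209, 213 and 201 TPM in shCtrl and 136, 136 and 138 TPM in shPCBP1, while its retained-intron transcripts were at 10.4 to 12.6 TPM and 11.8 to 14.3 TPM, so the groups were apart for the first class and overlapped for the second. Counted on protein_coding transcripts only, the log2 fold change of NDUFS7 was -0.57. NDUFV1 (chromosome 11, 67605653 to 67612554, plus strand), which binds NADH, the flavin and cluster N3, had 26364, 26674 and 25711 normalized counts in shCtrl and 23147, 22698 and 22111 in shPCBP1. Its log2 fold change was -0.21 (standard error 0.0346, DESeq2 adjusted p = 1.88e-08). Coding NDUFV1 transcripts were at 194, 210 and 198 TPM against 161, 170 and 159 TPM, and those annotated for nonsense-mediated decay were at 4.29, 5.39 and 7.48 TPM against 14.2, 15.1 and 12.99 TPM. NDUFV1 transcripts with a retained intron were at 86.4, 95.5 and 83.5 TPM against 69.8, 68.5 and 73.6 TPM. The share of NDUFV1-209, annotated for nonsense-mediated decay, did not pass the limma test of transcript usage (adjusted p = 0.0706). The calls of NDUFS7 and NDUFV1 were kept in all 16 settings.

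The other cluster-bearing subunits of complex I did not pass. NDUFS1, which holds 3 clusters, had 12249, 12147 and 12430 normalized counts in shCtrl and 11159, 11830 and 11631 in shPCBP1 without overlap, and a log2 fold change of -0.089 (95% interval -0.17 to -0.012, DESeq2 adjusted p = 0.0686). It passed under 4 of the alternatives, TMM factors among them (adjusted p = 0.0291). NDUFS8 was at 0.019 (95% interval -0.064 to 0.10) and NDUFV2 at 0.045 (95% interval -0.031 to 0.12). NDUFS3, a core subunit without a cluster, was at -0.030. Neighbours in the same electron path thus had different values, from -0.36 for NDUFS7 to 0.045 for NDUFV2, and the intervals of those 2 do not overlap.

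Among the accessory subunits of complex I, NDUFA10 (chromosome 2, 239892450 to 240025743, minus strand), a kinase-like subunit of the membrane arm, had the largest fall. Its normalized counts were 10285, 10192 and 10540 in shCtrl and 8924, 8732 and 8841 in shPCBP1, with a log2 fold change of -0.23 (standard error 0.0394, DESeq2 adjusted p = 1.4e-07). NDUFA13, also known as GRIM-19, fell by 0.14 on the log2 scale (standard error 0.0382), and its call too was kept in all 16 settings. NDUFA8 fell by 0.14, NDUFA2 by 0.13 and NDUFB5 by 0.12. These last 3 calls depended on single libraries: they were lost without 4, 2 and 3 of the 6 libraries, with adjusted p up to 0.11, 0.105 and 0.0621. NDUFB5 was lost without shCtrl replicate 3 or shPCBP1 replicate 1 or 3, NDUFA2 without shCtrl replicate 1 or shPCBP1 replicate 3, and NDUFA8 without shCtrl replicate 1 or 3 or shPCBP1 replicate 2 or 3. NDUFB5 also lost its call when only protein_coding transcripts were summed (log2 fold change -0.011). The highest fold change among nuclear complex I members was that of NDUFC2 at 0.094, which did not pass (DESeq2 adjusted p = 0.104).

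Complex II, succinate dehydrogenase, also belongs to the citric acid cycle and consists of 4 nuclear subunits. Its summed level was 630, 646 and 642 TPM in shCtrl and 570, 580 and 595 TPM in shPCBP1. SDHD (chromosome 11, 112086824 to 112120016, plus strand), 1 of its 2 membrane anchors and a ligand of its heme, had 14311, 14635 and 14672 normalized counts in shCtrl and 11867, 11940 and 12144 in shPCBP1. It fell by 0.28 on the log2 scale (standard error 0.0362, DESeq2 adjusted p = 6.46e-13), the second largest fall among abundant members after NDUFS7. SDHA (chromosome 5, 218303 to 257082, plus strand), the flavin subunit that oxidizes succinate, had 31610, 30984 and 31496 normalized counts against 28857, 27865 and 28480, with a log2 fold change of -0.14 (standard error 0.032, DESeq2 adjusted p = 7.09e-05).

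The partners of these subunits did not pass. SDHC, the other anchor and heme ligand, was at 0.018 (95% interval -0.071 to 0.11), and SDHB, which carries the iron-sulfur clusters, was at -0.030 (95% interval -0.11 to 0.048). The intervals of SDHD and SDHC, whose products bind one heme between them, do not overlap.

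Complex III had 2 falls and 0 rises among its 9 nuclear members tested (22.2% and 0%, against 13.5% and 17.7% of all genes). The subunits of the electron path did not pass: UQCRFS1, the Rieske iron-sulfur protein, was at 0.0021 (95% interval -0.073 to 0.077), and CYC1, cytochrome c1, at 0.023 (95% interval -0.043 to 0.090). The 2 members that fell were UQCRC1 and UQCRC2, the core proteins that face the matrix and carry no cofactor. UQCRC1 had 16618, 16445 and 16882 normalized counts in shCtrl and 15817, 15479 and 15421 in shPCBP1 (log2 fold change -0.096, standard error 0.0349, DESeq2 adjusted p = 0.022), and UQCRC2 had 25219, 25856 and 24697 against 23766, 24135 and 23066 (log2 fold change -0.094, standard error 0.0353, DESeq2 adjusted p = 0.0274). UQCRC1 was lost without shCtrl replicate 1 or 3 or shPCBP1 replicate 2 or 3 (adjusted p up to 0.09), and UQCRC2 without shCtrl replicate 1 or 2 or shPCBP1 replicate 1 or 3 (adjusted p up to 0.104) and with length offsets (adjusted p = 0.146). The TPM of UQCRC1 overlapped between the groups, and with length offsets the call of UQCRC1 was lost too, at a log2 fold change of -0.016. UQCRH, the hinge protein and the nuclear member of this complex with the highest level, was at 1610 to 1621 TPM in shCtrl and 1510 to 1530 TPM in shPCBP1, with a log2 fold change of -0.054 in counts that did not pass.

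Taken by cofactor, the 7 nuclear subunits that hold iron-sulfur clusters included 2 falls (NDUFS7 and NDUFV1, 28.6%), and the 5 subunits of either genome that hold heme included 1 fall (SDHD) and 1 rise (MT-CYB). The 73 nuclear members tested that hold neither included 18 falls (24.7%) and 1 rise. Over all genes, 13.5% were lower and 17.7% higher.

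**Figure D4:**
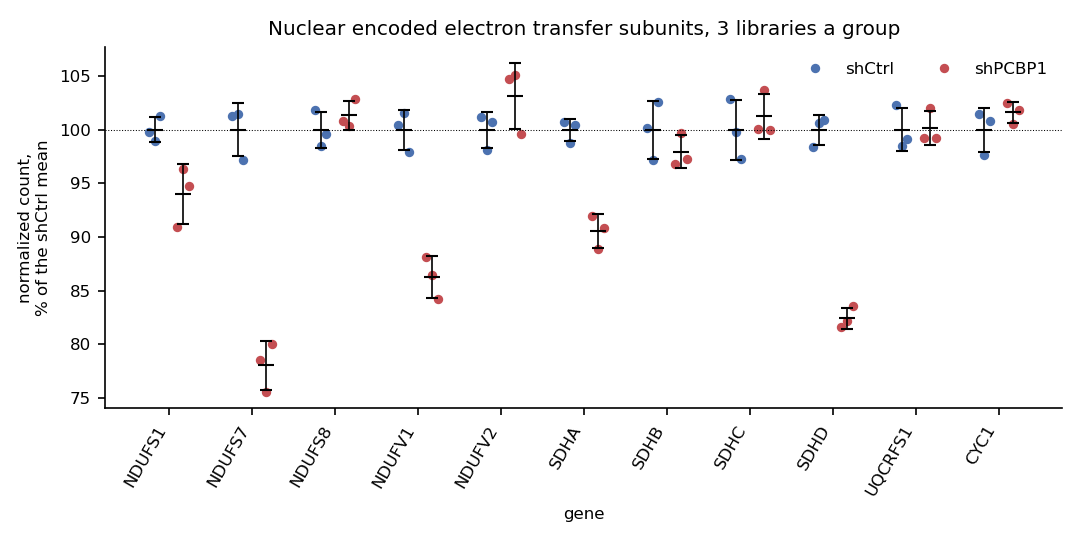
Normalized counts of nuclear encoded electron transfer subunits of complexes I, II and III as a percentage of each gene's shCtrl mean, with 1 point for each library and the mean and SD of each group of 3 in black. NDUFS7, SDHD, NDUFV1 and SDHA lie below their shCtrl points, whereas NDUFS8, NDUFV2, SDHC, UQCRFS1 and CYC1 lie around 100%.

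Complex IV, cytochrome c oxidase, had 14 nuclear members tested, with 4 falls (28.6%, against 13.5% of all genes), 0 rises (against 17.7%) and 12 log2 fold changes below 0. COX6B1, a subunit on the side that receives cytochrome c, had 16369, 15939 and 16590 normalized counts in shCtrl and 15038, 14819 and 14824 in shPCBP1, with a log2 fold change of -0.13 (standard error 0.0356, DESeq2 adjusted p = 0.00154). COX6C fell by 0.12 on the log2 scale (standard error 0.0405, DESeq2 adjusted p = 0.00966). NDUFA4, named for complex I and now counted with complex IV, fell by 0.11 (standard error 0.0372, DESeq2 adjusted p = 0.0124). COX6B1 and COX6C were kept in all 16 settings, COX6C with an adjusted p up to 0.0493. On protein_coding transcripts only, COX6C was at -0.35, but the split of its transcripts was uneven between replicates. COX6C-206, annotated for nonsense-mediated decay, took 77.2%, 74.7% and 19.4% of the gene's TPM in shCtrl. In shPCBP1 it took 80.1%, 82.8% and 30.0%. NDUFA4 was lost without shCtrl replicate 3 or shPCBP1 replicate 3 (adjusted p up to 0.0607) and with length offsets (adjusted p = 0.123). COX4I1, the largest nuclear subunit, had 35176, 34399 and 36220 normalized counts against 34383, 33836 and 32938 and did not pass (log2 fold change -0.065, 95% interval -0.13 to 0.0026).

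Several complex IV subunits exist as a common form and a paralog for muscle, lung or testis. The common forms carried nearly all of the level. COX4I2 and COX6A2 were listed at 0 TPM in all 6 libraries, and COX7A1, COX7B2 and COX8C were at or under 0.383 TPM in each, beside 781 to 856 TPM for COX4I1, 658 to 713 TPM for COX6A1, 632 to 719 TPM for COX7A2, 128 to 151 TPM for COX7B and 747 to 822 TPM for COX8A. NDUFA4L2, a paralog of NDUFA4 known for its rise in low oxygen, was at 0.535 to 1.18 TPM and overlapped between groups. The exception was COX6B2, the testis form of COX6B1, which had 209, 246 and 228 normalized counts in shCtrl and 117, 129 and 134 in shPCBP1. Its log2 fold change of -0.84 (standard error 0.216, DESeq2 adjusted p = 0.000636) was the largest of any member. COX6B2 overlaps another annotated gene on its strand (chromosome 19, 55349306 to 55354719). Its TPM of 12.2, 2.37 and 8.20 in shCtrl included 10.6, 0.466 and 6.60 TPM from transcripts without a defined coding sequence, most of the level in replicates 1 and 3 but not in replicate 2. Its protein_coding transcripts were at 1.52, 1.91 and 1.57 TPM against 0.766, 1.13 and 1.23 TPM in shPCBP1. With length offsets its log2 fold change was -2.73.

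Complex V, ATP synthase, had 19 nuclear members tested, of which 5 fell and 1 rose (26.3% and 5.26%, against 13.5% and 17.7% of all genes), with 17 log2 fold changes below 0. The peripheral stalk holds the catalytic head still against the turning rotor. ATP5PO, the stalk subunit called OSCP (chromosome 21, 33903453 to 33915814, minus strand), had 27774, 27474 and 27818 normalized counts in shCtrl and 24301, 24367 and 23430 in shPCBP1. It fell by 0.20 on the log2 scale (standard error 0.033, DESeq2 adjusted p = 1.34e-08) and was kept in all 16 settings. The other stalk subunits had like values, all without overlap between groups: ATP5PB fell by 0.10 (standard error 0.0347, DESeq2 adjusted p = 0.0154), while ATP5PD at -0.099 and ATP5PF at -0.096 did not pass (DESeq2 adjusted p = 0.0718 and 0.0601). Such a lack of overlap was seen for 44.2% of all genes tested. The ATP5PB call was lost without shCtrl replicate 1 or 3 or shPCBP1 replicate 2 or 3 (adjusted p up to 0.0762) and with length offsets (adjusted p = 0.26).

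The rotor ring is made of 1 protein, subunit c, that 3 genes encode with different import signals. ATP5MC1 had 7687, 7299 and 7455 normalized counts in shCtrl and 6770, 6581 and 6424 in shPCBP1 and fell by 0.18 on the log2 scale (standard error 0.0453, DESeq2 adjusted p = 0.000418). ATP5MC3, with the highest level of the 3 at 880 to 985 TPM, fell by 0.11 (standard error 0.0324, DESeq2 adjusted p = 0.0051). Both were kept in all 16 settings, with ATP5MC3 at -0.16 on protein_coding transcripts only. ATP5MC2 was at -0.037 (95% interval -0.11 to 0.041) and did not pass.

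In the catalytic F1 head, ATP5F1A (subunit alpha) fell by 0.088 (standard error 0.0304, DESeq2 adjusted p = 0.0151), with 43148, 42498 and 42893 normalized counts against 40650, 40690 and 39563. It was lost without shCtrl replicate 1 (adjusted p = 0.0588) and with length offsets (adjusted p = 0.0727). Its partner ATP5F1B (subunit beta), which makes the ATP, was at -0.0043 with a narrow 95% interval of -0.064 to 0.055 and had 128222 to 133826 normalized counts in all libraries. The intervals of these 2 subunits, which stand in equal number in the head, overlap. ATP5MF-PTCD1, a readthrough of the subunit gene ATP5MF into PTCD1, rose by 0.31 (standard error 0.0711, DESeq2 adjusted p = 0.000125), with 1913, 1959 and 2144 normalized counts against 2503, 2394 and 2558. It stood at 11.1 to 13.5 TPM beside 1596 to 1670 TPM for ATP5MF (log2 fold change 0.014), shares exons with both neighbours and was lost with length offsets (adjusted p = 0.0651). The inhibitor ATP5IF1 was at -0.065 (95% interval -0.16 to 0.025).

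Gene counts can stay level while transcripts shift. Among 219 member transcripts from 70 genes, 0 passed the limma test of transcript usage with a share difference over 5 percentage points, against 0.377% of all 58556 transcripts, and 44 were at an unadjusted p under 0.05 (20.1%, against 12.1% of all transcripts). On simulated data this test missed moderate shifts, so the count of 0 does not show that usage was alike. The lowest adjusted p was that of NDUFB10-202, whose share of NDUFB10 was 35.2%, 34.1% and 38.1% in shCtrl and 47.6%, 50.2% and 48.3% in shPCBP1 (limma adjusted p = 0.0622). For ATP5F1D, subunit delta of the F1 head, ATP5F1D-202 made up 57.8%, 56.3% and 50.9% of the gene in shCtrl and 43.4%, 40.1% and 40.9% in shPCBP1 (limma adjusted p = 0.105). The gene's TPM did not overlap (264, 265 and 246 against 218, 210 and 217), whereas its normalized counts did, with a log2 fold change of -0.070 that did not pass.

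The promoters of the nuclear members were searched for motifs of the factors known to act on respiratory genes. Of the 90, 70 had an entry in the RefSeq promoter table (GRCh38.p14, 250 bases before to 50 after each start, 300 bases in all). NRF1 is the nuclear respiratory factor whose motif was spelled as GCGC, any base, then TGCGC, and searched on both strands like the other motifs. It lay in 24.3% of the 70 member promoters, in 8.61% of all 15331 protein_coding promoters and in 6.28% of all 27305 promoters. It lay in 5 of 16 promoters of members that fell (31.3%) and in 12 of 54 of the other members (22.2%). The ETS motif CCGGAAG, bound by GABPA, lay in 28.6% of member promoters against 14.4% of protein_coding promoters, in 3 of 16 that fell (18.8%) and 17 of 54 others (31.5%). The YY1 motif AAGATGGCG lay in 11.4% against 2.80%, in 2 of 16 and in 6 of 54. The searches did not remove overlaps between motifs. Windows around the NRF1 motif are shown for SDHD, SDHA and ATP5PO, members that fell in all 16 settings, with the motif in capitals and read on the strand of the gene:
SDHD chr11:112086753-112086782: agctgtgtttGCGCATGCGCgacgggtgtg
SDHA chr5:218144-218173: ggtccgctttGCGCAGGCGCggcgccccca
SDHA chr5:218193-218222: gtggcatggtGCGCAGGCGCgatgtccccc
SDHA chr5:218242-218271: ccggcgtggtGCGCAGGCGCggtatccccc
ATP5PO chr21:33915809-33915838: acgccaacgcGCGCGTGCGCccttgcgcgt
The motif ended 100 bases before the RefSeq start in SDHD and 14 bases before it in ATP5PO, and in SDHA it stood 3 times, on the opposite strand. A match describes the letters only.

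Of 12 listed regulators of these genes, 11 were tested (PPARGC1A was not), 6 rose (54.5%, against 17.7% of all genes) and 0 fell (against 13.5%). PPRC1, a coactivator of the PGC-1 family, had 7130, 6473 and 7295 normalized counts in shCtrl and 9837, 9251 and 8611 in shPCBP1, with a log2 fold change of 0.41 (standard error 0.0574, DESeq2 adjusted p = 5.33e-11). GABPA was at 0.22, NRF1 at 0.18, YY1 at 0.13, MYC at 0.13 and SP1 at 0.11, and all passed, while ESRRA, GABPB1, PPARGC1B, CHCHD2 and ZFP36 did not.

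The other lists had medians of either sign. Of 54 assembly factors, which build the complexes without staying in them, 6 rose and 4 fell (11.1% and 7.41%, against 17.7% and 13.5% of all genes), with a median log2 fold change of 0.029. COA7, a factor for complex IV, rose from 6326, 5867 and 6367 to 8757, 8022 and 7497 normalized counts (log2 fold change 0.39, standard error 0.0581, DESeq2 adjusted p = 7.61e-10), and HIGD1A fell from 18905, 18482 and 20412 to 15741, 16028 and 15683 (log2 fold change -0.28, standard error 0.0423, DESeq2 adjusted p = 4.5e-10). SDHAF3, which helps to mature SDHB, fell by 0.20 (standard error 0.046, DESeq2 adjusted p = 0.000114). Of 30 genes for copying and expressing the mitochondrial genome, 7 rose and 3 fell (23.3% and 10.0%, against 17.7% and 13.5% of all genes), with a median of 0.067. They included rises of TWNK, the mitochondrial helicase (0.29, standard error 0.0698, DESeq2 adjusted p = 0.000226), TFAM, which packs the genome (0.14), and MTPAP, which adds the poly-A tails (0.15), and falls of FASTK (-0.29, standard error 0.0494, DESeq2 adjusted p = 1.06e-07) and the polymerase POLG (-0.20). FASTK lost its call when only protein_coding transcripts were summed (adjusted p = 0.234).

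Of 78 mitochondrial ribosomal protein genes, 21 rose and 6 fell (26.9% and 7.69%, against 17.7% and 13.5% of all genes), with a median of 0.047. The lowest adjusted p among the rises was that of MRPL49 (0.30, standard error 0.046, DESeq2 adjusted p = 2.07e-09) and among the falls that of MRPS36 (-0.42, standard error 0.0603, DESeq2 adjusted p = 6.82e-11), which has since been assigned to the oxoglutarate dehydrogenase complex. Of 6 electron carriers and subunits outside the name rule, all had log2 fold changes below 0 and 2 fell, namely CYCS, cytochrome c (-0.10, standard error 0.0358, DESeq2 adjusted p = 0.0155), and ETFB, an electron transfer flavoprotein (-0.25, standard error 0.0462, DESeq2 adjusted p = 7.21e-07).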

How the data were processed

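Poly-A RNA of K562 cells was sequenced in paired reads in 3 shCtrl and 3 shPCBP1 libraries, grouped by sample title. The labels do not say whether replicates were separate transductions, so p-values measure the spread between these libraries. The authors quantified transcripts with Salmon 1.10.2 on hg38, per the submitters' processing notes. They deposited raw estimated counts, and TPM values that Salmon had corrected for effective length and brought to one fixed total. Which annotation release and strand setting they used was not given in the sources used here. Of 252045 transcripts, 251612 were matched to GENCODE release 44, and the rest (up to 0.147% of counts) were left out.

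For each gene, estimated counts were added over its transcripts and rounded. A two-sided DESeq2 Wald test with group as the only term and median-of-ratios size factors was run on all genes whose counts over the 6 libraries came to 10 or more. P-values were adjusted by Benjamini-Hochberg over all genes, and "changed", "rose" and "fell" mean an adjusted p under 0.05. Intervals are the log2 fold change plus and minus 1.96 standard errors. Transcript usage was tested with limma on the log2 ratio of a transcript's TPM to that of its gene's other transcripts (pseudocount 0.1 TPM, genes of at least 1 TPM). Levels of different genes were compared in TPM, since normalized counts are not scaled for length. Scripts were tested on simulated data. The fewest counts were in shPCBP1 replicate 3.

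The rule for naming genes took the mitochondrially encoded members, the cofactor carriers, the lowest adjusted p in each complex and direction, the isoform families, the highest TPM in each complex and the leading gene of each list in each direction. The other members that changed are named as well, except for an item that is not reported here, and any gene outside the rule was chosen after its values were seen. The members and lists were chosen with earlier results of these data known. The alternatives were edgeR, TMM factors, length offsets, other count filters, protein_coding genes or transcripts only, size factors without mitochondrial genes, removal of length or GC trends, a replicate block and leaving out each library. Tools were DESeq2 1.42.0, edgeR 4.0.16 and limma 3.58.1 under R 4.3.3, and Python 3.11.15.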

Additional observations from a re-analysis of the deposited data

How the results depend on the processing

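The number of changed members was 27 and lay between 22 and 37 under the other analysis settings, and between 21 and 26 when 1 library was left out. The share of all genes was 31.2%, 15.9% to 34.0% and 25.7% to 31.6% in turn. How the members stood beside all genes depended on the setting. Of the 100 members over the count minimum, 25 had changed with edgeR, beside 15.9% of all 28848 genes. Without the automatic DESeq2 filter on low counts 27 had changed, beside 17.1% of all 28808 genes. Replicate numbers did not pair the libraries (correlations of same-numbered deviations 0.0387, 0.0160 and -0.0331). With a replicate block 25 members had changed, 24 of them shared with the 27, beside 28.9% of all genes. The block took away the calls of NDUFA2 (adjusted p = 0.0529), NDUFB5 (adjusted p = 0.0576) and UQCRC1 (adjusted p = 0.0658). The transcript usage count of 0 became 1 with a pseudocount of 1 TPM (NDUFB10-202), and ranged from 0 to 1 with 1 library left out (COX6B2-206 without shCtrl replicate 2). The median log2 fold change of mitochondrially encoded members was -0.027 on protein-coding transcripts only and 0.048 with the length trend removed. That of nuclear members was -0.084 and -0.016 in the same settings, beside -0.0017 and 0.012 over all genes. Other nuclear members switched sign too: 58 were below 0 and 25 above, against 64 and 19 with TMM factors and 68 and 16 with protein-coding genes only. Summing normalized counts gave a log2 ratio of -0.060 for the nuclear members. The causes of these shifts were not tested.

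Signs were followed for the genes of the naming rule and the members that changed. Those among them that switched sign, listed here, had not passed the test. With edgeR the values were -0.010 for MT-ATP6, -0.012 for UQCRFS1, -0.00020 for ATP5MF and -0.0037 for COX6A1. With TMM factors they were -0.010, -0.012, -8.3e-05 and -0.0039 for the same genes. Length offsets gave 0.00092 for MT-ND4, -0.020 for COX6A1 and 0.058 for COX7A2L. A mean count over 50 gave -0.0064 for MT-ATP6, -0.0086 for UQCRFS1 and -0.00012 for COX6A1. Testing protein-coding genes only gave -0.018 for MT-ATP6, -0.0029 for NDUFS8, -0.0038 for SDHC, -0.020 for UQCRFS1, -0.0079 for ATP5MF, -0.012 for COX6A1 and -0.0027 for NDUFA4L2. Protein-coding transcripts only gave -0.027 for MT-ATP6, -0.015 for SDHC, -0.029 for UQCRFS1, -0.0055 for CYC1, -0.0086 for ATP5MF and -0.023 for COX6A1. With 1 library left out, the ranges were -0.0084 to 0.11 for MT-ND1, -0.029 to 0.024 for MT-ND4, -0.039 to 0.0067 for MT-CO2, -0.019 to 0.022 for MT-ATP6, -1.2e-05 to 0.040 for SDHC, -0.011 to 0.019 for UQCRFS1, -0.0092 to 0.056 for ATP5MF, -0.0034 to 0.024 for COX6A1 and -0.22 to 0.058 for NDUFA4L2. Depth limits the low paralogs most: 7 members were under 1 TPM in every library.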
